A study of Mus musculus with 11 samples.

Results

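The 7 genes described here, Emx1, Emx2, Pax6, Lhx2, Nr2f1, Nr2f2 and Sp8, encode transcription factors that pattern the dorsal telencephalon. They were taken by name, not by a rule on measured values, but with earlier results of these data known. The sources were 48440 genes of a bulk RNA-seq count table and 32285 genes of the scRNA-seq matrices, and all 7 were found in both.

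The dorsal telencephalon, or pallium, is the part of the forebrain that forms the neocortex and hippocampus. Its progenitors carry graded levels of a few transcription factors that set dorsal against ventral fate and the position of future cortical areas. Lhx2, a LIM-homeodomain factor, selects cortical fate over that of the midline hem. The homeodomain factors Emx1 and Emx2 mark the pallium, and Emx2 is highest in its caudal and medial part. Pax6, a paired-box and homeodomain factor of apical progenitors (APs), is highest rostrally and laterally and drives neurogenesis. Sp8, a zinc-finger factor, is highest rostrally and medially, and also marks progenitors and neurons of the ganglionic eminences (GE). The orphan nuclear receptors Nr2f1 (COUP-TFI) and Nr2f2 (COUP-TFII) are highest caudally, and Nr2f2 is in addition prominent in caudal GE neurons, Cajal-Retzius cells, vessels and mesenchyme.

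The study deleted Syncrip, an RNA-binding protein of the hnRNP family, in mice of the C57BL/6 background and asked how cortical progenitors at E14.5 change. The bulk libraries were made from cultured neural progenitor cells (NPCs), 3 from WT and 3 from cKO mice, and the scRNA-seq libraries from the dorsal telencephalon of 1 WT and 1 cKO embryo of one litter. A cKO animal was Syncrip fl/fl with Emx1-Cre, and recombination removes exons 2, 3 and 4 of Syncrip in cells of the Emx1 lineage, which leaves out most GE, blood and vessel cells. Whether the WT animals carried floxed alleles is not given in the sources used here, and neither is the Cre line of the cultures by itself. The Cre of this line sits in the Emx1 locus, so an Emx1 value in cKO cells comes from a locus that also carries the Cre insertion, and the effect of the insertion and that of the Syncrip deletion cannot be told apart. The NPCs came from tissue around the lateral ventricles and were grown as primary cells with EGF and bFGF.

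Totals ran from 16962903 to 22708400 counts per culture. The WT library held 8289 barcodes and 100172392 UMIs (unique molecular identifiers, which count captured transcripts), and the cKO library 9659 barcodes and 111313526 UMIs. Of these, 8214 and 9560 cells passed the filters, and 22 barcodes occurred in both libraries. By Y-linked counts the first and second WT cultures and the first cKO culture were male and the others female, so sex was uneven between genotypes. Nothing in the labels says that the cultures came from separate animals, so p-values measure the spread between these cultures. Counts over all of Syncrip cannot check a deletion of internal exons. They were 77.9, 79.8 and 79.9 CPM (counts scaled to a common library total) in WT and 90.3, 88.7 and 81.5 CPM in cKO cultures (log2 fold change 0.13, edgeR adjusted p = 0.18). The paper itself reports a check of the knockout in RNA and protein, with the deleted exons missing from RNA-seq tracks of cKO neurospheres.

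In the NPC cultures, 3 of the 7 factors were lower in cKO (Nr2f2, Pax6 and Sp8) and 4 were not called (Emx1, Emx2, Lhx2 and Nr2f1). All 7 were tested, with edgeR's quasi-likelihood test adjusted over 14432 genes at 0.05. No member was called higher, at an unadjusted p under 0.05 the count was also 0, and DESeq2 and limma-voom each called 0. Among all genes tested, 39.5% were called, 19.7% as higher and 19.8% as lower. The count of 3 in 7 stands beside the share for either direction, and as all 3 were lower it also stands beside the share of genes called lower. The median log2 fold change of the members was −0.14 beside 0.002 for all genes. The groups did not overlap for 2 of the 7, Nr2f2 and Pax6, beside 50.4% of all genes. In these bulk samples, fewer cells of a type and less RNA per cell cannot be told apart.

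Nr2f2 moved most. Its level was 9.59, 11.7 and 3.21 CPM in WT cultures and 1.67, 0.816 and 1.35 CPM in cKO cultures. Every cKO culture lay below every WT culture, and the WT cultures were themselves split. The third WT culture lay between the rest of its group and the cKO cultures. The log2 fold change was −2.64 (SE 0.49, edgeR adjusted p = 0.0027), a 6.24-fold lower level. Within the male cultures 9.59 and 11.7 CPM stood against 1.67 CPM, and within the female cultures 3.21 CPM stood against 0.816 and 1.35 CPM, so the direction was the same in both sexes. With sex as a covariate the log2 fold change was −2.14.

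Pax6 fell by less but with little spread. It stood at 79.2, 75.5 and 75.1 CPM in WT against 62.4, 61.9 and 58.8 CPM in cKO cultures, without overlap. The log2 fold change was −0.33 (SE 0.08, edgeR adjusted p = 0.0049), a 1.26-fold lower level. The span of the antisense transcript Pax6os1 shares 1431 bases with Pax6. It was counted at 0.585 to 1.34 CPM in WT against 0.699 to 1.40 CPM in cKO cultures, far below Pax6, and was not called (adjusted p = 0.74).

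Sp8 was low and variable. Its level was 3.92, 2.67 and 6.65 CPM in WT against 1.81, 2.16 and 3.37 CPM in cKO cultures, and the groups overlapped. The log2 fold change was −0.85 (SE 0.32, edgeR adjusted p = 0.048). This call rests on single cultures: without the first or the third WT culture the adjusted p was 0.067 and 0.28, and without the first or the second cKO culture 0.16 and 0.11.

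The cortical selector Lhx2 and the area factor Nr2f1 did not pass the test. Lhx2 stood at 140, 163 and 132 CPM in WT against 125, 144 and 127 CPM in cKO, a log2 fold change of −0.14 (SE 0.09, edgeR adjusted p = 0.25). Nr2f1 stood at 126, 123 and 129 CPM in WT against 149, 130 and 125 CPM in cKO, a log2 fold change of 0.10 (SE 0.08, edgeR adjusted p = 0.35). The groups overlapped for both genes. A noncoding gene on the other strand, A830082K12Rik, shares 1741 bases with Nr2f1, was counted at 59.0 to 73.1 CPM over the 6 cultures and was not called (adjusted p = 0.24). The pair on the other strand of Lhx2, Gm27197 and Gm13584, had 0 counts in all 6 cultures.

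Emx1 was close to absent in the cultures, with 7 to 29 counts per library. It stood at 0.495, 0.390 and 1.07 CPM in WT against 0.883, 1.46 and 1.40 CPM in cKO cultures, with overlap, and the log2 fold change of 0.90 (SE 0.42) was not called (edgeR adjusted p = 0.10). The third WT culture decided this: without it the log2 fold change was 1.46 and Emx1 was called higher (adjusted p = 0.025).

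Emx2 was even across the cultures, whereas its antisense neighbour was not. Emx2 stood at 28.7, 34.5 and 29.1 CPM in WT against 30.5, 31.5 and 29.99 CPM in cKO cultures (log2 fold change −0.0032, SE 0.10, edgeR adjusted p = 0.98). Emx2os, the noncoding transcript that starts head to head with Emx2, stood at 12.7, 13.4 and 12.5 CPM in WT against 22.7, 23.01 and 22.7 CPM in cKO cultures. Every cKO culture lay above every WT culture, and the log2 fold change was 0.83 (SE 0.11, edgeR adjusted p = 4.1e-05), a 1.77-fold rise. The 2 spans share only 264 bases. The counting is not stated to use strand, so within the shared bases reads of one gene and its antisense partner cannot be told apart.

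**Figure D1:**
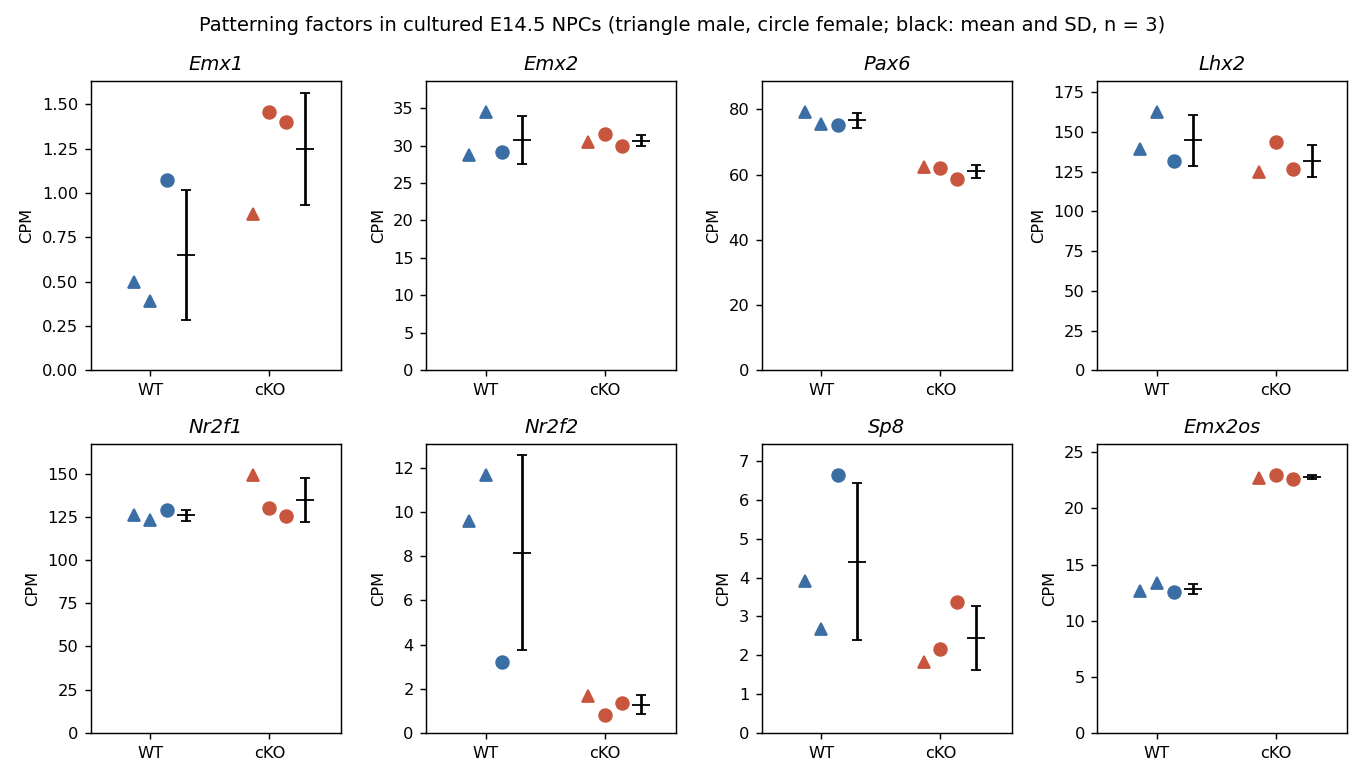
Level of the 7 members and Emx2os in each NPC culture, in CPM on a linear axis from 0, with triangles for male and circles for female cultures and the mean and SD (n = 3) in black. Nr2f2, Pax6 and Emx2os separate the genotypes without overlap, whereas the groups overlap for the other 5 genes.

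On mm10 the count table places Emx1 at chr6:85187438-85204462, Emx2 at chr19:59458372-59465357, Pax6 at chr2:105668900-105697364, Lhx2 at chr2:38339281-38369733 and Sp8 at chr12:118846329-118852578, all on the plus strand. Nr2f1 at chr13:78188973-78199757 and Nr2f2 at chr7:70351944-70366735 lie on the minus strand. The listed length of each gene is this whole span, and whether intronic reads were counted is not stated.

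Levels of different genes can be compared only per length, so CPM were divided by the exonic length in GENCODE M21. On this scale of CPM per kilobase of exon, Lhx2 (32.95 in WT, 29.996 in cKO) and Nr2f1 (24.7 and 26.5) led, followed by Emx2 (10.2 and 10.2) and Pax6 (6.55 and 5.22). Sp8 (0.968 and 0.537), whose span in the count table, unlike those of the other members, differs from that in M21, Nr2f2 (0.947 and 0.148) and Emx1 (0.299 and 0.570) were lowest. In WT, the range of Nr2f2 (0.372 to 1.36) overlapped with those of its neighbours Sp8 (0.587 to 1.46) and Emx1 (0.179 to 0.490), whereas those of the upper 4 genes overlapped with none of the lower 3.

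The promoter windows of the 3 factors called lower are shown because they differ in base composition. They are the 250 bases before the RefSeq start on GRCm38.p6, read 5′ to 3′ on the strand of the gene. Capitals mark CG dinucleotides. The window of Nr2f2 is chr7:70366747-70366996 on the minus strand, that of Pax6 is chr2:105668646-105668895 on the plus strand, and that of Sp8 is chr12:118846079-118846328 on the plus strand. For Pax6 and Sp8, which have 2 and 3 starts in RefSeq, the first listed is used.
Nr2f2: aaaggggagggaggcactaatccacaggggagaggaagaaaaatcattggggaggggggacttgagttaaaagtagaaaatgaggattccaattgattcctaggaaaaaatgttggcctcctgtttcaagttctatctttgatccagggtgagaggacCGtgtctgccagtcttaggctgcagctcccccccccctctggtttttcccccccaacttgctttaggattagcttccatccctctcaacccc
Pax6: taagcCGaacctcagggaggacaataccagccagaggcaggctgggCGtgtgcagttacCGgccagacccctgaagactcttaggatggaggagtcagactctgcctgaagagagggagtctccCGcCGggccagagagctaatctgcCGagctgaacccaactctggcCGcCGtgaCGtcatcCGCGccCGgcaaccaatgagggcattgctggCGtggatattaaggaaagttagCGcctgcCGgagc
Sp8: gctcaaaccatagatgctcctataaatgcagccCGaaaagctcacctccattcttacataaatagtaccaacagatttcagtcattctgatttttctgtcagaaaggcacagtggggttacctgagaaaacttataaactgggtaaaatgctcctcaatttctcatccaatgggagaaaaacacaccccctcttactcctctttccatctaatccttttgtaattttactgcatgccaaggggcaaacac

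The Nr2f2 and Sp8 windows each held 1 CG, below the median of 6 over 32851 RefSeq promoter windows of the same length, and the Pax6 window held 15. The windows of the 4 members that were not called held 22 (Nr2f1), 24 (Emx2), 25 (Lhx2) and 30 (Emx1). For Nr2f1 and Lhx2, which have 2 starts each in RefSeq, the first listed was used. Whether these counts go with the calls was not tested. The TATA sequence TATAAA, searched on both strands, occurred 2 times in the Sp8 window and in none of the other 6, beside 12.4% of all windows with at least 1. The CCAAT sequence, also on both strands, occurred 2 times before Nr2f2 and 1 time each before Pax6, Sp8 and Emx2, beside 33.8% of all windows. These matches describe letters only.

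Emx2os begins 55 bases before the RefSeq start of Emx2. The 30 bases around the Emx2os start, chr19:59458621-59458650 on the plus strand of GRCm38.p6, are printed with the position of the first base of Emx2os in capitals. Emx2os lies on the minus strand, so its own first base is the complement of that letter. The RefSeq start of Emx2, at 59458690, lies outside the printed bases.
Emx2os start: gcactttaaagagtCtccccccttccacct

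Other genes of the same pathways were read from lists chosen by function, and counts are set beside 19.7% higher and 19.8% lower among all genes. Of 7 tested further transcription factors of the dorsal pallium, 3 were called lower and 4 were not called. Nr2e1, an orphan nuclear receptor of neural progenitors, was among those lower (log2 fold change −0.30). Gli3, Dmrta2, Dmrt3 and Otx1 did not pass the test, with log2 fold changes of 0.22, −0.15, 0.13 and 0.24.

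Genes of the FGF pathway, which patterns the rostral telencephalon, were mostly higher. Of 11 tested, 8 were called higher and 1 lower. Dusp6, a phosphatase induced by ERK signaling, rose most, from between 11.8 and 16.7 CPM in WT to between 84.8 and 93.8 CPM in cKO (log2 fold change 2.66). The receptor Fgfr2 was the 1 called lower (−0.21). Of 5 tested genes of the medial hem and its WNT and BMP signals, Bmp7 was higher (1.58), and Bmp4 (−0.79) and Wnt2b (−0.73) were lower. Of 4 tested genes of the antihem, the lateral signaling border of the pallium, Nrg1 (0.53) and Tgfa (0.41) were higher.

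Of 6 tested neurogenic genes that act with or after Pax6, Neurog2 was called higher (2.21 to 3.26 CPM in WT, 4.34 to 5.002 CPM in cKO) and 3 were called lower. The neuronal factor Neurod6 fell most, from between 11.9 and 21.7 CPM in WT to between 0.524 and 1.11 CPM in cKO (log2 fold change −4.14). Insm1, a factor of neurogenic progenitors, fell from between 42.5 and 60.4 CPM in WT to between 14.4 and 21.5 CPM in cKO (log2 fold change −1.47). Eomes, the defining factor of intermediate progenitors (IPs), was at 0.357 CPM or less in every culture and was not tested.

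Ventral genes fell where they were called. Of 11 tested genes of the ventral telencephalon, 5 were lower and 6 were not called. Six3, a factor of GE neurons, stood at 6.75, 5.68 and 11.2 CPM in WT and had 0 counts in all 3 cKO cultures, at least 45.0-fold lower when each culture is allowed 3 counts. Among cofactors linked to LIM-homeodomain or homeodomain proteins, 4 of 12 tested were higher, led by Lmo3 (0.53), and 2 were lower, led by Ldb2 (−1.76).

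Genes used as markers of glial and vascular cells moved with genotype in the same cultures. The part of such cells in the fall of Nr2f2, Pax6 and Sp8 was not tested. Some of these genes are not limited to such cells. In AP-like cells of the embryos described below, 3 of 6 astrocyte genes had at least 200 UMIs. Of these, Aldh1l1 and Slc1a2 were at least 1.2-fold lower in cKO and 0 were that much higher. Of 5 tested astrocyte genes 4 were lower (the summed level of the list was 4007 to 4430 CPM in WT against 2439 to 2751 CPM in cKO), led by the water channel Aqp4 (log2 fold change −2.06). Of 6 oligodendrocyte-lineage genes 2 were higher and 2 lower, with summed levels of 3580 to 3881 CPM in WT against 2532 to 2986 CPM in cKO. Of 4 tested endothelial and mural genes, Pdgfrb (−0.73) and Rgs5 were lower, and the summed level was 44.2 to 51.5 CPM in WT against 24.2 to 34.8 CPM in cKO. GE neuron-like cells of the WT embryo held Nr2f2 at 202 CPM, Pax6 at 83.3 CPM and Sp8 at 66.5 CPM. In the cultures 5 of 11 tested ventral genes, Six3 among them, were lower, and the part of GE cells was not tested. Nr2f2 is also known from vessels and mesenchyme. The fibroblast genes Col1a1, Col1a2, Col3a1, Dcn and Lum were together at 0.937 CPM or less in WT and 1.08 CPM or less in cKO. The choroid plexus list stayed at 0.446 CPM or less in all 6 cultures.

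In the embryonic tissue each factor had its own distribution over cell classes. Cells were clustered without the 7 members, and classes were named from markers that include none of them: AP-like (959 WT and 1315 cKO cells), IP-like (630 and 682), migrating neuron-like (1624 and 1503), immature excitatory neuron-like (2617 and 2672) and GE cells in 4 clusters (1141 and 1579), besides small classes. Each genotype was 1 embryo, so the error between embryos is unknown and no test was made. Values are UMIs summed over the cells of a class, in CPM, and their 95% intervals (exact Poisson for a level, exact conditional for a ratio) cover counting error only.

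Lhx2 and Nr2f1 were broad over the excitatory lineage. In WT, Lhx2 was highest in migrating neuron-like cells (677 CPM, 665 to 688), then in IP-like (641 CPM, 624 to 659) and AP-like cells (499 CPM, 487 to 512), and lower in immature excitatory neuron-like cells (164 CPM). Nr2f1 was 361 CPM in IP-like and 351 CPM in migrating neuron-like cells, whose intervals overlapped, 311 CPM in AP-like and 147 CPM in immature excitatory neuron-like cells. Nr2f1 also reached 212 CPM in the GE neuron-like class, where Lhx2 was at 77.0 CPM.

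Pax6 declined along the lineage and Emx1 peaked in its middle. In WT, Pax6 fell from 276 CPM in AP-like through 161 CPM in IP-like and 61.1 CPM in migrating neuron-like to 4.17 CPM in immature excitatory neuron-like cells. Emx1 was 35.3 CPM in AP-like, 86.0 CPM in IP-like, 54.5 CPM in migrating neuron-like and 21.4 CPM in immature excitatory neuron-like cells, and 3.19 CPM in GE cells. Emx2 was the same in AP-like and IP-like cells within counting error (85.0 and 86.0 CPM) and then fell to 54.8 and 6.65 CPM. Its highest level was in Cajal-Retzius-like cells, at 377 CPM (338 to 420).

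Nr2f2 and Sp8 had their highest levels outside the AP-like, IP-like, migrating neuron-like and immature excitatory neuron-like classes, each in a few classes. Nr2f2 was at 14.1 CPM in WT AP-like, 29.6 in IP-like, 36.9 in migrating neuron-like and 18.0 in immature excitatory neuron-like cells. It stood at 1027 CPM in Cajal-Retzius-like, 319 CPM in fibroblast-like, 202 CPM in GE neuron-like and 134 CPM in endothelial-like cells, but at 40.3 CPM in MGE neuron-like, 26.4 CPM in GE progenitor-like, 20.6 CPM in striatal neuron-like and 2.62 CPM in microglia-like cells. The GE neuron-like cluster matched caudal GE neurons best, with 5 of 6 markers raised and Adarb2 as its leading gene. It got the broader name because more of its leading genes were general GE neuron markers. Sp8 was at 11.5 CPM in WT AP-like and 4.11 CPM in IP-like cells, against 66.5 CPM in GE neuron-like and 47.8 CPM in GE progenitor-like cells. Elsewhere it was low or not detected, with 0.97 CPM in MGE neuron-like, 0.98 CPM in striatal neuron-like and 2.28 CPM in Cajal-Retzius-like cells and 0 UMIs in endothelial-like cells. Pax6 was also found in those 2 GE classes (83.3 and 74.2 CPM).

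**Figure D2:**
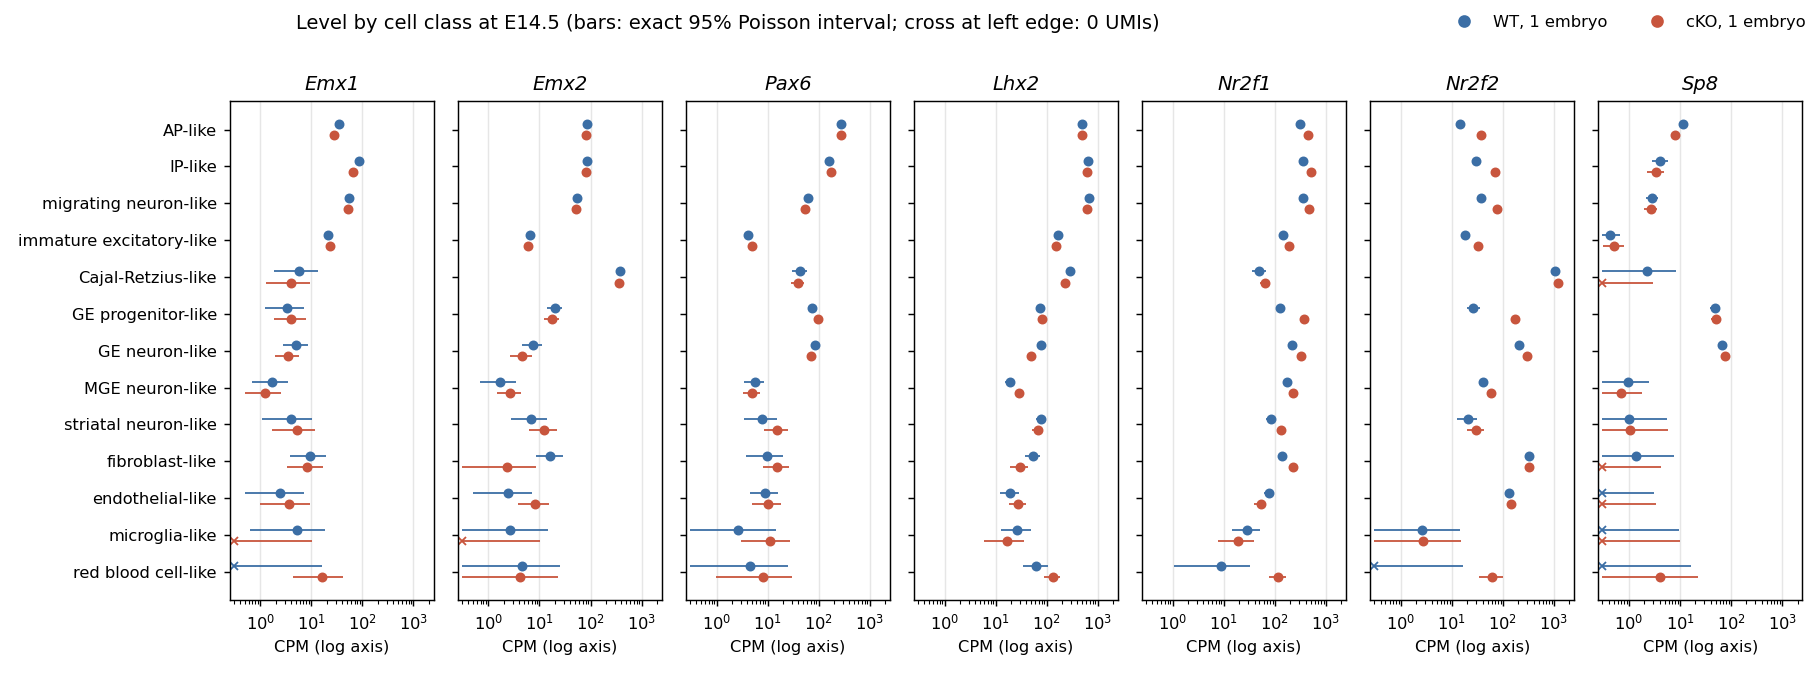
Level of each member in 13 marker-defined cell classes of the WT and cKO embryo, in CPM on a log axis with exact 95% Poisson intervals, and a cross at the left edge for 0 UMIs. Pax6 falls from AP-like to immature excitatory neuron-like cells, Emx1 peaks in IP-like cells, and Nr2f2 peaks in Cajal-Retzius-like cells in both embryos.

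Across the genotypes, 2 of the 7 members were at least 1.2-fold higher in AP-like cells of the cKO embryo (Nr2f1 and Nr2f2) and 2 at least 1.2-fold lower (Emx1 and Sp8). Of 10356 genes with at least 200 UMIs in these cells, 8.49% were that much higher and 5.89% that much lower, a comparison of these 2 libraries and not of the genotypes. Emx2, Pax6 and Lhx2 lay close to 0.

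Nr2f2 and Nr2f1, the caudal pair, were higher in each of the 4 excitatory classes of the cKO embryo. In AP-like cells Nr2f2 was 14.1 CPM (12.1 to 16.3) in WT against 37.0 CPM (34.3 to 39.8) in cKO, a log2 ratio of 1.39 (1.15 to 1.63). The ratio was 1.27 in IP-like, 1.04 in migrating neuron-like and 0.85 in immature excitatory neuron-like cells. The last value is a sum over 3 clusters that differed, with ratios of 1.15 and 1.42 in 2 of them and −0.37 (−0.67 to −0.07) in the third. Nr2f1 in AP-like cells was 311 CPM (302 to 321) in WT against 441 CPM (432 to 451) in cKO, a log2 ratio of 0.50 (0.45 to 0.56), and 0.50, 0.38 and 0.37 in the 3 later classes. Transcripts of other cells moved with them in the AP-like class. Of 5 ventral genes with at least 200 UMIs, Dlx1 (0.64), Dlx2 (0.32), Dlx5 (0.79) and Gad2 (1.11), which mark GABAergic cells, were at least 1.2-fold higher in cKO and 1 was lower, and of 9 neurogenic genes 7 were higher, with Neurod6 at 0.37, and Insm1 (−0.45) was lower. Their part in the Nr2f2 and Nr2f1 values was not tested.

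Both genes were also higher in GE cells, which are largely outside the Emx1 lineage, by an amount that was not tested against that in AP-like cells. There Nr2f1 was 167 CPM in WT against 276 CPM in cKO (log2 ratio 0.72, 0.63 to 0.80), and Nr2f2 was 81.1 and 151 CPM (0.90, 0.78 to 1.02). The 4 GE clusters differed. In the GE progenitor-like cluster, with 110 WT and 131 cKO cells, the ratios were 1.58 (1.37 to 1.80) for Nr2f1 and 2.73 (2.29 to 3.19) for Nr2f2. In the GE neuron-like, MGE neuron-like and striatal neuron-like clusters they were 0.60, 0.37 and 0.66 for Nr2f1 and 0.58, 0.51 and 0.53 for Nr2f2, and the last interval (−0.33 to 1.41) included 0. In GE cells, 2 of the 5 members with at least 200 UMIs were at least 1.2-fold higher, beside 6.28% of genes higher and 4.74% lower. With 1 embryo each, the genotype, the embryo and the piece of tissue dissected cannot be told apart.

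By cluster, the interval for Nr2f1 lay above 0 in 21 of the 24 clusters with at least 20 cells per embryo and below 0 in 1, the endothelial-like cluster (−0.53, −1.03 to −0.04). For Nr2f2 it lay above 0 in 18 and below 0 in 1, an immature excitatory neuron-like cluster (−0.37, −0.67 to −0.07). In fibroblast-like cells Nr2f2 was even, with 319 CPM in both embryos. The 21 clusters for Nr2f1 include the clusters mostly of called doublets, an unnamed cluster of low UMIs and the red blood cell-like cluster. The 18 for Nr2f2 also include the red blood cell-like cluster. There Nr2f1 had 2 UMIs in WT and 28 in cKO, its highest log2 ratio of the 24 (3.68, 1.70 to 6.80). In microglia-like cells, outside these 24, the Nr2f1 ratio was −0.59 (−2.20 to 0.91). The part of transcripts from other cells in these values was not tested. The 24 clusters share their 2 embryos and are not replicates.

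**Figure D3:**
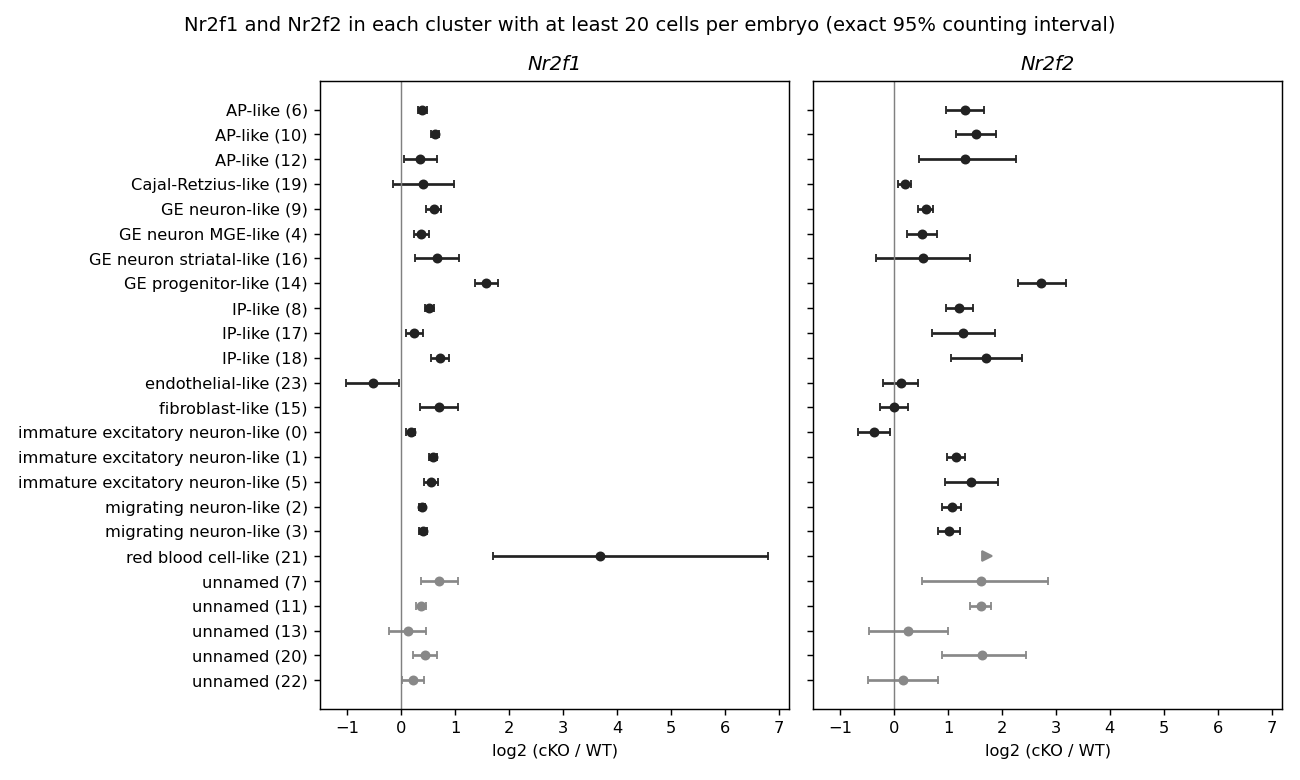
Log2 ratio of cKO over WT for Nr2f1 and Nr2f2 in the 24 clusters with at least 20 cells in each embryo, with exact 95% counting intervals, unnamed clusters in grey, cluster numbers in brackets and an arrowhead at the lower bound where WT had 0 UMIs. Most clusters lie above 0, GE and excitatory ones alike, whereas Nr2f2 lies at 0.00 in fibroblast-like cells.

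The share of cells with an Nr2f2 UMI was also higher in the cKO embryo. In AP-like cells it was 8.03% (77 of 959) in WT and 17.6% (232 of 1315) in cKO at median depths of 12457 and 12653 UMIs. After each cell was thinned to 5000 UMIs, which left out 181 WT and 177 cKO cells, it was 4.76% (exact binomial 3.37 to 6.50) and 11.6% (9.80 to 13.6). Microglia-like cells, which should lack the gene, held an Nr2f2 UMI in 1 of 31 WT and 1 of 48 cKO cells at median depths of 11326 and 3189.5 UMIs. Red blood cell-like cells held one in 0 of 54 WT cells, which allows a share of up to 5.56%, and in 4 of 56 cKO cells (7.14%) at median depths of 3569.5 and 3099.5 UMIs. Those 4 cells carried 15 UMIs, or 61.3 CPM for the class (34.3 to 101), and after thinning the share was 3 of 18 (16.7%, 3.58 to 41.4). Among cKO microglia-like cells it was 0 of 16, with an exact upper limit of 20.6%. Both intervals hold the thinned cKO share of AP-like cells, so at this depth that share could not be told apart from the share in either class. In CPM, the cKO microglia-like cells (2.73, 0.07 to 15.2) lay below the AP-like cells (37.0), and the red blood cell-like cells did not. The part of such signal in the difference was not tested.

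Emx1 was lower in both progenitor classes of the cKO embryo. In AP-like cells it was 35.3 CPM (32.1 to 38.7) in WT against 27.3 CPM (24.99 to 29.7) in cKO, a log2 ratio of −0.37 (−0.55 to −0.19). In IP-like cells it was 86.0 and 64.9 CPM (−0.41, −0.57 to −0.25). The ratio was −0.03 (−0.16 to 0.10) in migrating neuron-like and 0.10 (−0.04 to 0.24) in immature excitatory neuron-like cells. The AP-like value depended on the processing: with each cell thinned to 5000 UMIs, which also leaves out shallower cells, it was −0.09 (−0.44 to 0.25).

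Sp8 rested on few UMIs, 149 in WT and 152 in cKO AP-like cells. It was 11.5 and 8.01 CPM, a log2 ratio of −0.53 (−0.86 to −0.19), and the sign turned to 0.15 (−0.51 to 0.83) when cells were thinned to 5000 UMIs. In GE cells it was 28.2 and 33.1 CPM, a log2 ratio of 0.23 (0.01 to 0.45).

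Pax6, Emx2 and Lhx2 differed little between the embryos. In AP-like cells Pax6 was 276 CPM in WT against 279 CPM in cKO (log2 ratio 0.02, −0.05 to 0.08), Emx2 was 85.0 and 81.4 CPM (−0.06, −0.17 to 0.05), and Lhx2 was 499 and 489 CPM (−0.03, −0.08 to 0.02). Lhx2 was slightly lower in the later classes, at −0.09 in IP-like, −0.14 in migrating neuron-like and −0.13 in immature excitatory neuron-like cells, and also at −0.13 in GE cells, where the interval (−0.31 to 0.04) included 0. Pax6 was lower in migrating neuron-like cells (−0.18, −0.31 to −0.06). Emx2os, higher in the cKO cultures, was 24.8 and 24.7 CPM in AP-like cells (−0.01, −0.21 to 0.20).

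**Figure D4:**
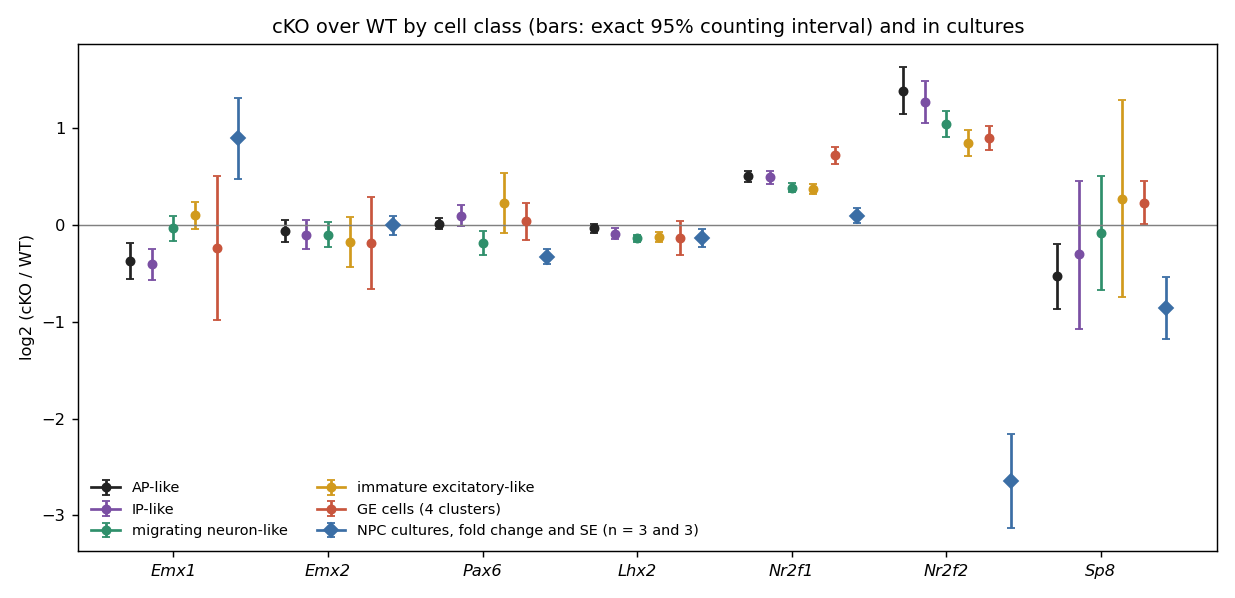
Log2 of cKO over WT for each member in 5 groups of cells (circles, exact 95% counting intervals, 1 embryo per genotype) and in the NPC cultures (diamonds, edgeR fold change with SE, 3 cultures per genotype). Nr2f1 and Nr2f2 lie above 0 in all 5 cell groups, whereas the culture value of Nr2f2 is −2.64.

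Nearby genes of the same patterning systems are given for AP-like cells. None of the 7 dorsal pallium factors with at least 200 UMIs passed 1.2-fold in either direction, and the ratio was 0.16 for Gli3. Of 6 FGF pathway genes Fgfr3, a receptor known to be highest caudally, was higher (0.37, 0.24 to 0.50), and of 3 medial genes Lef1 (−0.87, −1.07 to −0.67) and Axin2 (−0.51, −0.80 to −0.22), both WNT targets, were lower and Rspo3 higher. The noncoding gene B130024G19Rik, on the other strand of Nr2f2, had 9 UMIs in WT and 102 in cKO AP-like cells (log2 ratio 2.95, 1.96 to 4.11), whereas the cultures held 0 to 3 counts of it.

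Likeness of pattern was measured as Pearson's correlation of log2(CPM + 1) over the 24 clusters with at least 20 WT cells, among 12757 genes, as a description. The clusters share 1 library and differ in depth. Emx2 was most like Dmrta2 (0.93 in WT and 0.93 over the same clusters in cKO), a dorsal midline factor, then Dmrta2os (0.88 and 0.86) and Emx2os (0.85 and 0.94). Lhx2 was most like Emx1 (0.87 and 0.87), then Ccdc136 (0.86 and 0.78) and C030006K11Rik (0.85 and 0.29). Emx1 itself was most like Efna4, Cul1 and Ccdc136 (0.89, 0.89 and 0.88 in WT, and 0.54, 0.78 and 0.73 in cKO).

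Pax6 was most like Kcne1l, Plch1 and Gm17057 (0.89, 0.87 and 0.87, and 0.73, 0.86 and 0.83 in cKO), and Nr2f1 most like Cul1, Dexi and Rbpj (0.89, 0.89 and 0.88, and 0.76, 0.57 and 0.77 in cKO). Nr2f2 was most like Lemd2, Tmem176b and B130024G19Rik (0.87, 0.86 and 0.84, and 0.35, 0.55 and 0.80 in cKO). Sp8 was most like Ccnd2, Gm4675 and Ccnq (0.86, 0.84 and 0.82, and 0.73, 0.64 and 0.37 in cKO). Several of these values were lower in the second embryo. The genes were picked for the highest WT values, which by itself favours lower values in the other library. The drop therefore cannot be read as a difference between the embryos. Among the members, the correlation between Nr2f1 and Nr2f2 was only 0.21 in WT and −0.12 in cKO, although both were higher in most cKO clusters.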

How the data were processed

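Bulk RNA-seq of NPCs (3 WT and 3 cKO cultures) was used with scRNA-seq of 1 WT and 1 cKO embryo. LACE-seq samples (3) were not analysed here. For the bulk table the authors filtered reads with NGSQC, aligned them to mm10 with HISAT2 and deposited raw counts per gene. The length given for each of the 48440 genes equals its whole span, and the counting program, annotation and use of strand were not given in the sources used here. Gene spans matched GENCODE M21 for 83.6% of genes. For single cells, the authors deposited UMI counts from Cell Ranger 7.0.0, not normalized. Both libraries hold more barcodes than the study's methods give as captured cells. Groups came from the sample titles and genotype labels.

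Counts were filtered with filterByExpr, scaled by TMM and compared in a robust quasi-likelihood fit (R 4.3.3, edgeR 4.0.16), with Benjamini-Hochberg adjustment over 14432 genes, which gives every adjusted p here. The 113 symbols listed more than once stayed separate. The common biological coefficient of variation was 0.107. On simulated counts the fit recovered known changes, but all genes there had this common coefficient of variation and few genes were changed. That setting is simpler than these data, so its outcome cannot judge the calls made here. With 3 against 3 an exact permutation test of 1 gene cannot go below 0.1. Same-numbered cultures were not paired by the labels. Alternatives were RLE and upper-quartile scaling, other count filters, DESeq2 1.42.0, limma-voom 3.58.1, a replicate block, a sex covariate and leaving out each culture.

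Barcodes with 200 or more genes and no more than 10% of UMIs from mitochondria were clustered in Seurat 5.3.0 (2000 variable genes without the members, 30 components, resolution 0.8), without integration, into 26 clusters. A class needed a mean standardized marker value of at least 0.5 and at least 3 markers raised 1.5-fold, and a cluster with over 75% of its cells in 1 library was not named. The limits were set after the clusters were seen, and 5 clusters with 2407 cells, among them 2 clusters mostly of called doublets, stayed unnamed. Doublets were called with Scrublet (scanpy 1.11.5) in 3.63% of WT and 4.72% of cKO cells and removed only as an alternative. The intervals and floors (3 counts) cover counting error only.

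Named genes were the members, genes that overlap them, the called genes of largest change in each list above 1 CPM, the 3 genes most like each member in WT, and Syncrip. The members and lists were chosen with earlier results of these data known. The context genes named in AP-like cells, the correlation between Nr2f1 and Nr2f2, and other genes named beside a list's leader, were chosen after their values were seen. Values of some genes that the rule would name are not reported here.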

Additional observations from a re-analysis of the deposited data

Results flagged for a closer look

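Nr2f2 moved in opposite directions in the cultures and in the embryos. The log2 value of cKO over WT was −2.64 in the NPC cultures, where all 3 cKO cultures lay below all 3 WT cultures, and 1.39 in AP-like cells of the 1 cKO embryo. The difference between these effects was not tested.

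Sp8 had ratios of opposite sign in classes of the same pair of embryos. The log2 ratio was −0.53 in AP-like cells and 0.23 in GE cells, and the difference was not tested. With cells thinned to 5000 UMIs the AP-like value was 0.15 (−0.51 to 0.83), on the same side as that of GE cells.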

How the results depend on the processing

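In the cultures, 83 of 95 alternative values of the members kept their direction and their side of the threshold. The number of members called lower was 1 with at least 5 CPM in 3 cultures, since Nr2f2, Sp8 and Emx1 were then not tested, and 2 or 3 without single cultures. The number called higher was 0 or 1 without single cultures, with Emx1 called without the third WT culture. Sp8 also lost its call with upper-quartile scaling (adjusted p = 0.0504) and limma-voom (0.071). Emx2, not called under any setting, changed sign with limma-voom (0.0057), the replicate block (0.0010) and the sex covariate (0.015), and ranged from −0.059 to 0.072 without single cultures. Pax6os1 ranged from −0.082 to 0.58 without single cultures. Pax6 and Nr2f2 kept their calls in all alternatives in which they were tested (log2 fold change −0.35 to −0.30 and −3.03 to −2.14). Same-numbered cultures had correlations of deviations of 0.33, −0.02 and 0.07. With 3 cultures per genotype and sex uneven between them, these values cannot decide whether cultures were paired. The replicate block gave 3189 genes higher and 3216 lower and the same count of 3 members lower. In AP-like cells, 59 of 63 alternative ratios stayed within the counting interval. The exceptions were thinning to 5000 UMIs per cell (Emx1 −0.094, Sp8 0.15) and equal weights for the clusters (Lhx2 −0.082, Sp8 −0.91). The cause was not tested. Leaving out the AP-like cluster of low UMIs, a choice made after the data were seen, gave 1.40 for Nr2f2 and −0.36 for Emx1. Depth limits Emx1 in the cultures (7 to 29 counts) and Sp8 in AP-like cells.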

Other observations

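A cluster with Tafa1, Tafa2 and Tfap2d as its leading genes, left unnamed because most of its cells came from 1 library (160 WT and 533 cKO cells), held high levels of both nuclear receptors. Nr2f1 was 505 CPM in WT against 652 CPM in cKO (log2 ratio 0.37, 0.27 to 0.47). Nr2f2 was 118 CPM in WT against 359 CPM in cKO (log2 ratio 1.602, 1.41 to 1.80). In each embryo this was above its level in AP-like, IP-like, migrating neuron-like and immature excitatory neuron-like cells.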
